A study of Mus musculus with 8 samples.

Results

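The factors of nonsense-mediated decay (NMD) were described in the cerebral cortex of newborn mice (postnatal day 0, FVB/N background) with the Phf6 mutation R342X and in wild-type controls of the same age and background, with 4 libraries of messenger RNA per genotype. The 9 genes Upf1, Upf2, Upf3a, Upf3b, Smg1, Smg5, Smg6, Smg8 and Smg9 were chosen by symbol, by a rule that uses no expression value. These genes were proposed with earlier results of these data known. They hold 45 of the 136202 transcripts and make up 9 of the 53392 genes in the files, and all 9 had enough reads to be tested. The labels name no sex, litter or batch and do not say whether the mutants are hemizygous, heterozygous or homozygous, and unless each library is from its own animal the p-values measure only the spread between these samples.

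NMD is the pathway by which cells destroy messenger RNA whose translation ends too early. A ribosome that stops well upstream of the last exon junction leaves an exon junction complex on the RNA, and the helicase Upf1, with Upf2 and a Upf3 protein as the bridge to that complex, is then phosphorylated by the kinase Smg1 and calls in factors such as Smg5 and Smg6, which start decay. The pathway also shapes many normal transcripts, among them those of splicing factors, and human mutations of the X-linked gene UPF3B cause intellectual disability.

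The R342X mutation is itself a premature stop codon, so its place relative to the last exon junction is shown first. In the reference the codon it replaces is CGA, an arginine near the end of the 364 amino acids of the main Phf6 transcript (Phf6-201), at X, positions 52953507 to 52953509 of GRCm38 on the plus strand, and 69 bases lie between it and the last of the junctions of the 11 exons. The stretch runs from 15 bases before the codon to 12 bases past the junction, taken from the GENCODE M21 transcript of the reference strain. The first capitals mark the codon that R342X turns into a stop, and the last pair marks the bases on each side of the junction.
Phf6-201: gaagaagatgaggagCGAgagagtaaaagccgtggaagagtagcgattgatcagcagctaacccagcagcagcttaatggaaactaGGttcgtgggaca

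Phf6 RNA was lower in every mutant library. It stood at 42.6, 39.3, 43.1 and 43.6 CPM (TMM-scaled read counts relative to library size) in mutant replicates 1 to 4 and at 91.9, 77.8, 74.3 and 72.1 CPM in wild-type replicates 1 to 4, and its log2 fold change was -0.90 ± 0.08 (SE; adjusted p = 0.00226 by the quasi-likelihood test of edgeR with the Benjamini-Hochberg method). This checks the genotype labels. Mutant libraries held 30469745 to 39453169 estimated reads and wild-type libraries 48841467 to 74266937, and each NMD factor had between 607 and 14533 reads in each library.

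Over all genes the leading principal component (35.3% of the variance) split the 8 libraries in 2 sets. Set 1 held mutant replicates 1 to 3 and wild-type replicate 1, and set 2 held mutant replicate 4 and wild-type replicates 2 to 4. No label explains this split, which is known only from the expression values, and either set has 3 libraries of one genotype beside a single library of the second. For this reason each NMD factor was also fitted with the set as a term beside genotype, and its log2 differences within the sets have 1 library on one side.

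No NMD factor passed the test between genotypes. By the edgeR test 0 of 9 passed an adjusted p of 0.05, as did 0.0199% of all 20097 genes tested. DESeq2 also called 0 of 9 (401 of 20097 genes tested), as did limma-voom (4 of 20097). At an unadjusted p under 0.05 stood 1 of 9, Upf3b, against 13.7% of all genes. This count was 0 with length offsets (2562 of 20097 genes tested) and without mutant replicate 1 (1827 of 20819) or 2 (1723 of 20791). It was also 0 without wild-type replicate 2 (1582 of 19956) or 4 (1700 of 19928). It was 2 without wild-type replicate 1 (5547 of 19993 genes tested) and 2 with the replicate number as a block (19.8% of all genes). Without mutant replicate 4 it was 3 (5425 of 20715 genes tested). The median log2 fold change was -0.08 over the 9 genes and 0.00 over all genes, and 8 of 9 lay below 0, as did 49.7% of all genes. With the set as a second term the median over the 9 was -0.02, 6 of 9 lay below 0 (51.5% of all genes) and 0 were called (0.602% of all genes). In bulk cortex, fewer cells that express a gene and less of its RNA per cell cannot be told apart.

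Intervals bound the size of the differences. Over the 9 genes, the 95% intervals of the mutant-to-wild-type ratio ran from 21.4% lower for Smg5 to 13.0% higher for Upf1 in the fit on genotype alone. The interval of Phf6 in the same fit ran from a log2 fold change of -1.08 to -0.73, and no interval of an NMD factor reached below -0.35. Intervals around a difference of 0 do not show that the genotypes were equal.

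**Figure D1:**
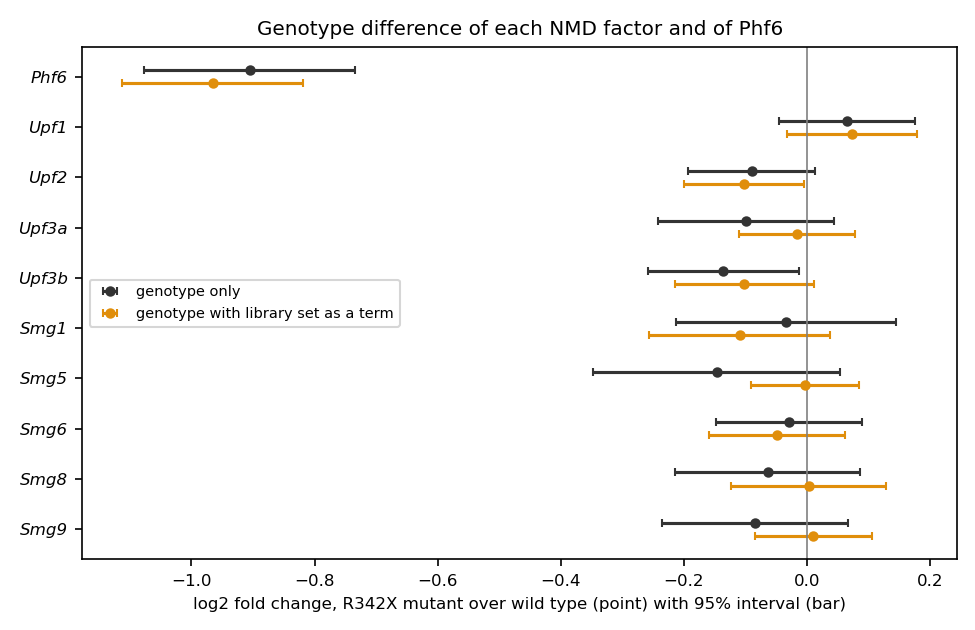
Log2 fold change of each NMD factor and of Phf6, mutant over wild type, with its 95% interval (x axis, log2 scale); black is the fit on genotype alone and orange the one that also holds the library set. The 9 NMD factors lie between -0.15 and 0.06 in the first fit, and Phf6 lies at -0.90.

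The RNA helicase Upf1 (ENSMUSG00000058301, chromosome 8, 70331525 to 70353278, minus strand) is the enzyme on which the pathway turns. Its level was 75.5, 79.1, 69.6 and 78.3 CPM in the 4 mutants, in replicate order, against 73.5, 73.0, 72.3 and 70.3 CPM in the controls. Mutant replicates 1, 2 and 4 stood above all wild-type libraries and mutant replicate 3 below them, so the groups overlapped. The log2 fold change was 0.06 ± 0.05 (SE; adjusted p = 0.556), the only value above 0 among the 9 genes. Upf1 overlaps Cers1 and Gdf1 on the opposite strand in the annotation, and the use of strand is not given in the sources used here, so its counts are less certain.

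Upf1 makes a pair of coding transcripts that were present at like levels. Upf1-201 holds 33 bases (11 codons) at the end of exon 7 that Upf1-202 lacks, at chromosome 8, positions 70339982 to 70340014, and its first exon is 67 bases longer. The extra codons lie in a loop of the helicase core known to tune its activity. Both stretches are shown on the transcript strand from GENCODE M21, with the added bases in capitals.
Upf1-201: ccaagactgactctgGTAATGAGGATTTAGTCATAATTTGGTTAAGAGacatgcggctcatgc
Upf1-202: ccaagactgactctgacatgcggctcatgc

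The longer form, Upf1-201, carried 48.3% ± 4.95 of Upf1 TPM in mutants and 49.4% ± 6.74 in wild type (SD, n = 4 each), where TPM is the level per transcript length. Its share by library was 50.2, 46.7, 42.4 and 54.0% in mutant replicates 1 to 4 and 44.8, 58.9, 49.7 and 44.4% in wild-type replicates 1 to 4, so libraries of 1 genotype spread over more than 10 points and the groups overlapped. In a fit over all 55749 transcripts tested, the log2 fold change was 0.06 ± 0.12 for Upf1-201 (SE; edgeR adjusted p = 0.915) and 0.12 ± 0.11 for Upf1-202 (adjusted p = 0.781).

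Upf2 (ENSMUSG00000043241, chromosome 2, 5951469 to 6056703, plus strand) binds Upf1 and a Upf3 protein at once. Its level was 40.5, 38.7, 38.9 and 38.9 CPM in mutants against 42.4, 43.2, 40.3 and 41.1 CPM in controls, in order of replicate. Of the 4 mutant libraries 3 lay below the lowest wild-type library, and mutant replicate 1 lay among the wild types. The log2 fold change was -0.09 ± 0.05 (SE; adjusted p = 0.412), and within the sets the difference was -0.11 in set 1 and -0.10 in set 2. With the library set as a term it was -0.10 ± 0.04 (unadjusted p = 0.0397, adjusted p = 0.334).

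Upf3b (ENSMUSG00000036572, chromosome X, 37091678 to 37110322, minus strand) joins Upf2 to the exon junction complex and lies on the same chromosome as Phf6. Its level was 55.8, 54.8, 58.2 and 58.2 CPM in the 4 mutants, in replicate order, against 59.7, 61.8, 59.8 and 68.2 CPM in the controls. In CPM every mutant library lay below every wild-type library, which held for 1 of the 9 NMD factors. In this direction 3.2% of all genes did not overlap in CPM, and 6.15% in either. The gap between the highest mutant and the lowest wild type in CPM was small beside the spread, and wild-type replicate 4 stood above the rest. In TPM the groups of Upf3b overlapped, at 54.8 to 58.3 TPM in mutants against 56.2 to 62.7 TPM in controls. The means were 56.7 ± 1.72 and 62.4 ± 4.02 CPM (SD, n = 4 each), 91.0% of wild type, and the log2 fold change was -0.14 ± 0.06 (SE; edgeR, unadjusted p = 0.0324, adjusted p = 0.331). Within the sets the log2 difference was -0.08 and -0.12, and with the set as a term it was -0.10 ± 0.05 (adjusted p = 0.422).

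Upf3a (ENSMUSG00000038398, chromosome 8, 13785615 to 13799193, plus strand), the autosomal paralog of Upf3b, plays a less uniform part in decay. Its level was 38.8, 40.5, 39.8 and 45.9 CPM in the 4 mutants, in replicate order, against 41.3, 46.2, 43.9 and 45.4 CPM in the controls. The low values were the 4 libraries of set 1 (38.8 to 41.3 CPM) and the high values those of set 2 (43.9 to 46.2 CPM), whichever genotype they came from. The log2 fold change was -0.10 ± 0.06 (SE; adjusted p = 0.492), and -0.02 ± 0.04 with the set as a term (adjusted p = 0.912). By TPM, Upf3b stood above Upf3a in 8 of 8 libraries, at 58.1 against 41.6 TPM over all libraries, and their ranges did not overlap.

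The kinase Smg1 (ENSMUSG00000030655, chromosome 7, 118131308 to 118243670, minus strand) phosphorylates Upf1. It had the most reads of the 9, from a main transcript of 15557 bases. Its level was 210.2, 205, 186 and 199.6 CPM in the 4 mutants, in replicate order, against 240.3, 202, 198 and 180.1 CPM in the controls, so wild type held both the highest and the lowest library. The log2 fold change was -0.03 ± 0.08 (SE; adjusted p = 0.855), and the differences within the sets had opposite signs, -0.27 in set 1 and 0.05 in set 2. Smg1 overlaps a predicted snoRNA and a predicted gene in the annotation.

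Smg8 and Smg9 form a complex with Smg1 and hold its kinase activity in check. Smg8 (ENSMUSG00000020495, chromosome 11, 87077732 to 87086774, minus strand) stood at 22.1, 19.8, 22.2 and 22.6 CPM in mutants against 20.6, 23.5, 23.7 and 22.7 CPM in controls, with a log2 fold change of -0.06 ± 0.07 (SE; adjusted p = 0.669). It was the lowest of the 9. Smg9 (ENSMUSG00000002210, chromosome 7, 24399619 to 24422778, plus strand) stood at 27.9, 28.7, 28.8 and 32.6 CPM in mutants against 28.4, 31.7, 32.8 and 32.0 CPM in controls, and its log2 fold change was -0.08 ± 0.07 (adjusted p = 0.574). In both genes set 1 lay below set 2 without overlap, at 19.8 to 22.2 against 22.6 to 23.7 CPM for Smg8 and 27.9 to 28.8 against 31.7 to 32.8 CPM for Smg9. With the set as a term the log2 fold changes were 0.00 ± 0.06 and 0.01 ± 0.04 (adjusted p = 0.990 and 0.954).

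Smg5 and Smg6 bind phosphorylated Upf1. Smg6 cuts the RNA near the early stop, and Smg5 helps to bring in deadenylation and decapping. Smg5 (ENSMUSG00000001415, chromosome 3, 88336260 to 88362338, plus strand) stood at 81.2, 81.2, 82.2 and 105 CPM in the 4 mutants, in replicate order, against 85.7, 98.2, 102 and 101 CPM in the controls. Mutant replicates 1 to 3 and wild-type replicate 1 were low and the other 4 libraries high, which are the 2 library sets (81.2 to 85.7 against 98.2 to 105 CPM). The log2 fold change of -0.15 ± 0.09 (SE; adjusted p = 0.475) became 0.00 ± 0.04 with the set as a term (adjusted p = 0.982), and the differences within the sets were -0.07 and 0.06. Without mutant replicate 4, the lone mutant of set 2, the log2 fold change of Smg5 was -0.25 (adjusted p = 0.0585).

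Smg6 (ENSMUSG00000038290, chromosome 11, 74925823 to 75164448, plus strand) stood at 60.9, 58.0, 60.9 and 62.1 CPM in mutants against 65.9, 62.2, 61.9 and 57.0 CPM in controls. The mutant libraries lay within the wild-type range, and the log2 fold change was -0.03 ± 0.05 (SE; adjusted p = 0.811). Smg6 overlaps Srr and several predicted genes on the opposite strand.

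**Figure D2:**
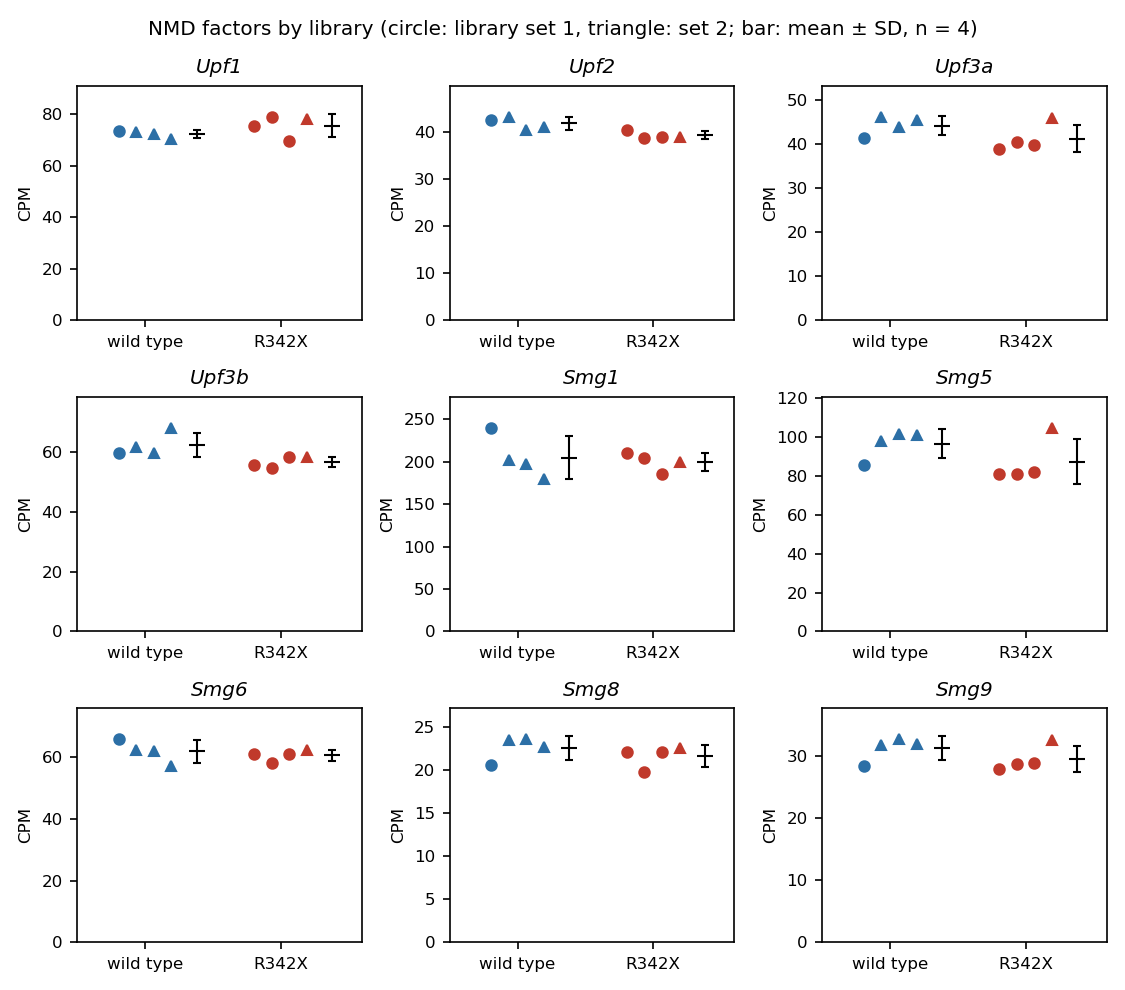
Level of each NMD factor in each library in CPM (y axis from 0), wild type in blue and R342X mutant in red; circles are libraries of set 1, triangles of set 2, and bars the mean ± SD over 4 libraries. Circles lie below triangles for Upf3a, Smg5, Smg8 and Smg9 in either genotype, and for Upf3b every mutant lies below every wild type.

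Across the 9 genes, the spread thus followed the library sets in 4 (Upf3a, Smg5, Smg8 and Smg9), whose set ranges did not overlap, as in 33.3% of all genes tested. The sets were drawn from the values of all genes, these included, so the counts are a description. The summed TPM of the 9 was 307 to 354 in mutant and 333 to 341 in wild-type libraries. Of the 9 NMD factors, 0 had an adjusted p under 0.05 in the authors' deposited table. Of the 14991 genes given an adjusted p there, 417 had one under 0.05, so 0 of 9 does not set these factors apart. The 9 factors had log2 fold changes from -0.04 for Upf3b to 0.04 for Upf1 and adjusted p from 0.552 to 0.999. In the authors' deposited table, values below 0 were given for 5 of 9 and values above 0 for Upf1, Smg5, Smg8 and Upf3a. In the fits here 8 of 9 lay below 0 on genotype alone and 6 of 9 with the set as a term. Some deposited signs rest on values next to 0, such as 9.27e-05 for Upf3a and -0.000378 for Smg1. The deposited folds lie closer to 0 than those of the fit on genotype alone. Whether the deposited folds were shrunken is not given in the sources used here.

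Per transcript length, all 9 stood above the median gene tested (9.89 TPM). Over the 8 libraries the mean was 73.1 TPM for Smg5, 58.1 for Upf3b, 41.6 for Upf3a, 39.9 for Smg9, 35.6 for Smg1, 30.3 for Upf1, 22.8 for Smg6, 18.2 for Upf2 and 12.7 for Smg8. Most steps of this order held in 8 of 8 libraries. Upf3a stood above Smg9 in 6 of 8 and Smg9 above Smg1 in 6 of 8, so the order within these pairs was not fixed, and the TPM ranges of Smg1 and Upf1 overlapped although Smg1 was higher in each library.

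The order depends on which transcripts are counted. TPM gives short, partial transcripts as much weight as full ones: a transcript of Smg1 of 447 bases (Smg1-207) carried 20.6% of Smg1 TPM on 24.5 to 68.8 reads per library, at most 0.732% of the reads of the gene. The main coding transcript of Smg5, Smg5-201, carried 40.1% of its TPM but 76.3 to 79.4% of its reads. Among main coding transcripts in wild type, Upf3b-201 was at 41.2 ± 1.63 TPM, Upf3a-201 at 37.1 ± 0.75 TPM and Smg5-201 at 29.8 ± 0.96 TPM (SD, n = 4 each), so Smg5 led only when all its transcripts were summed.

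Of the 45 transcripts of the 9 genes, 35 passed the filter on low counts and 0 were called between genotypes, as were 0.0144% of all transcripts tested. At an unadjusted p under 0.05 stood 0 of 35 (7.37% of all), the genotypes did not overlap in TPM for 0 of 35 (4.37% of all), and 27 of 35 lay below 0 (51.2% of all). The count at an unadjusted p under 0.05 was 5 without mutant replicate 4 (9300 of 58677 transcripts tested) and 3 without wild-type replicate 1 (8003 of 56011). It was 1 without mutant replicate 1 (3072 of 59080) and 1 with the set as a term (3590 of 55749). These fits do not hold the error of assigning reads to transcripts. The smallest p was that of the main Upf3b transcript, Upf3b-201, at 38.4 ± 1.21 TPM in mutants against 41.2 ± 1.63 TPM in controls (SD, n = 4 each), and the log2 fold change was -0.14 ± 0.07 (SE; edgeR, unadjusted p = 0.0609, adjusted p = 0.679). The main transcripts Upf2-201, Upf3a-201, Smg1-201, Smg5-201, Smg6-201, Smg8-201 and Smg9-201 had log2 fold changes from -0.10 to -0.01, and each had an adjusted p of at least 0.766.

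The genes differed in how much of their RNA was annotated as coding. Coding transcripts carried all TPM of Upf1 and Smg8, and 88.5% in each genotype for Upf2 and for Upf3a. They carried 91.6% in wild type and 90.3% in mutants for Upf3b. For Smg9 coding transcripts carried 43.5% ± 3.02 in wild type and 45.9% ± 2.66 in mutants, and 4 retained-intron transcripts carried the rest (56.5% ± 3.02 and 54.1% ± 2.66; SD, n = 4 each). For Smg5 retained-intron transcripts carried 43.9% ± 1.54 in wild type and 39.7% ± 5.22 in mutants, and mutant replicate 4 (47.4%) stood above the wild types (43.0 to 46.2%) while mutant replicates 1 to 3 lay at 36.2 to 38.6%.

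**Figure D3:**
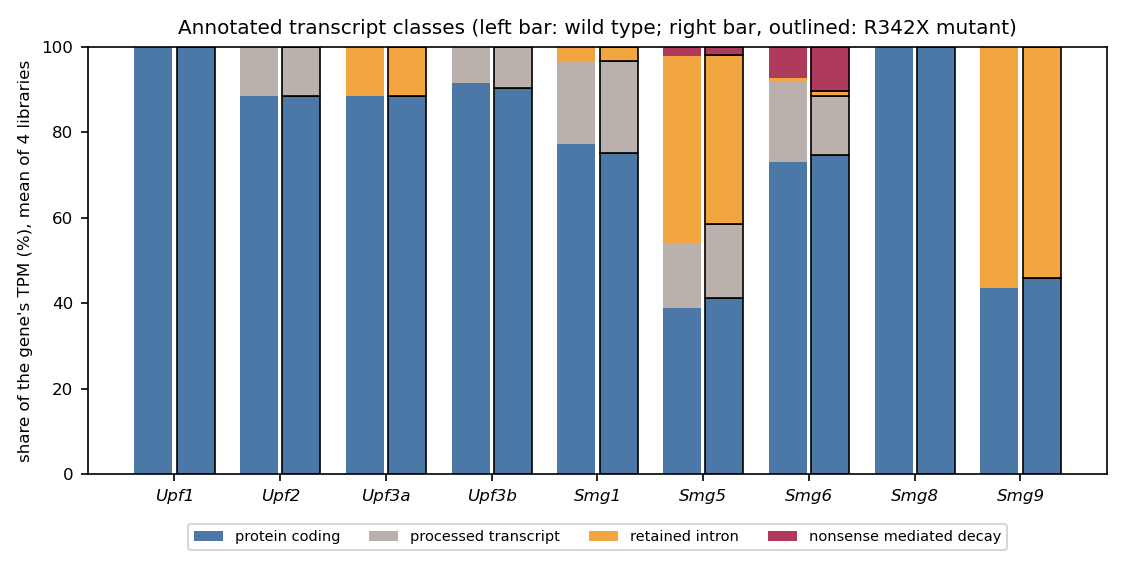
Share of each gene's TPM (y axis, %) in the annotated transcript classes, mean of 4 libraries, wild type on the left of each pair and R342X mutant, outlined, on the right. Smg9 and Smg5 hold large retained-intron shares in both genotypes, and an annotated NMD transcript is visible for Smg5 and Smg6.

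Of the 9 genes, Smg1, Smg5 and Smg6 have a transcript that the annotation itself marks as a target of NMD. In these the annotated stop lies 10397 bases (Smg1-204), 434 bases (Smg5-202) and 1379 bases (Smg6-202) upstream of the last exon junction. In the main transcripts Smg1-201, Smg5-201 and Smg6-201 the stop lies past it. The 15 bases before and 12 bases after each early stop are shown from GENCODE M21, with the stop codon in capitals.
Smg1-204: gaagactggctactgTAAagcagctgaagg
Smg5-202: tattgctacttgcgcTGAtgcagtagctta
Smg6-202: attccctgcagtggcTGAgaaggtccttaa

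Smg1-204 had 0 estimated reads in all 8 libraries. Smg5-202 stood at 1.27 ± 0.34 TPM in mutants against 1.53 ± 0.52 TPM in controls (SD, n = 4 each), on 15.4 to 64.3 reads per library, and the log2 fold change was -0.31 ± 0.33 (SE; edgeR, adjusted p = 0.811). Smg6-202 was the most abundant of the 3. It stood at 1.43, 2.17, 2.72 and 2.88 TPM in the 4 mutants, in replicate order, against 1.42, 1.79, 1.33 and 1.95 TPM in the controls, so 3 mutant libraries lay above all wild types and mutant replicate 1 among them. It carried 10.2% ± 2.92 of Smg6 TPM in mutants against 7.19% ± 2.07 in controls (SD, n = 4 each), and its log2 fold change was 0.46 ± 0.25 (SE; edgeR, unadjusted p = 0.105, adjusted p = 0.700), and 0.66 ± 0.26 with the set as a term (unadjusted p = 0.0367, adjusted p = 0.756).

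What the pathway acts on was measured next, as the share of all TPM in the 6811 transcripts annotated as NMD targets, a readout that did not enter the choice of the 9 genes. The share was 2.36, 2.35, 2.34 and 2.42% in mutant replicates 1 to 4 and 2.41, 2.41, 2.45 and 2.42% in wild-type replicates 1 to 4. Mutant replicates 1 to 3 lay below all wild types, and mutant replicate 4 lay among them. The means were 2.37% ± 0.04 and 2.42% ± 0.02 (SD, n = 4 each), a difference of -0.05 percentage points (exact two-sided permutation test, p = 0.114, adjusted p = 0.229 over 2 shares, where 4 against 4 cannot go below 0.0286). The difference was -0.06 points in set 1 and -0.004 points in set 2. The share in retained-intron transcripts was 6.44% ± 0.36 in mutants and 6.65% ± 0.06 in wild type (exact permutation p = 0.314, adjusted p = 0.314). Its differences within the sets were -0.30 points in set 1 and 0.21 points in set 2. The retained-intron difference was -0.22 points over all libraries, -0.09 points without mutant replicate 3 (exact permutation p = 0.629) and -0.37 points without mutant replicate 4 (exact permutation p = 0.0571). In the last case mutant replicates 1 to 3 (6.05 to 6.55%) lay below all wild types (6.59 to 6.72%), and 3 against 4 cannot give a smaller p.

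**Figure D4:**
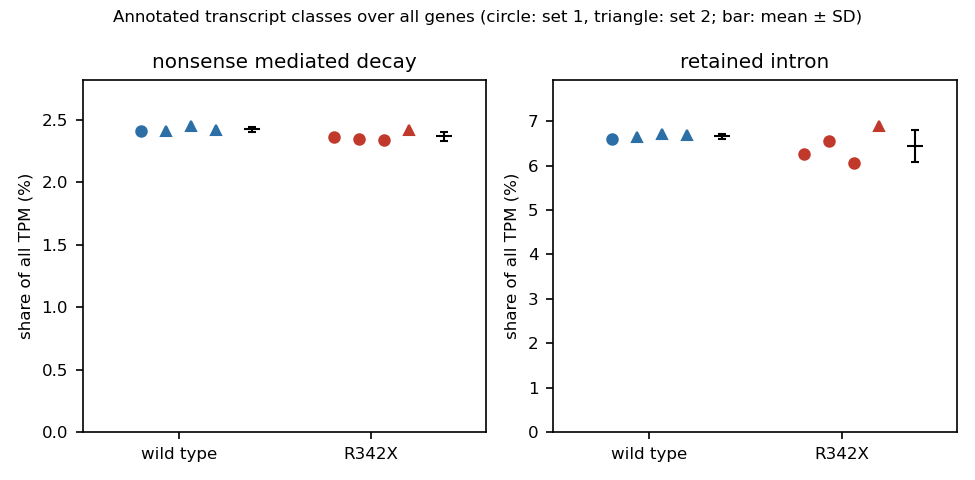
Share of all TPM (y axis from 0, %) in transcripts annotated as NMD targets (left) and as retained introns (right) in each library, with the mean ± SD over 4 libraries; circles are set 1 and triangles set 2. The NMD share lies between 2.34 and 2.45% in all 8 libraries.

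Of these annotated NMD transcripts, 3277 could be tested and 0 were called by edgeR. At an unadjusted p under 0.05 stood 7.20% of them, near the 7.37% of all transcripts. Of these, 69 were higher and 167 lower in mutants, against 2090 higher and 2019 lower over all 55749 transcripts tested. The median log2 fold change of the annotated NMD transcripts was -0.08, against -0.01 over all transcripts. Retained-intron transcripts had the same median of -0.08, with 235 higher and 528 lower at such a p (6.14%), and 0 of 12420 called. Coding transcripts lay the other way, with a median of 0.03, 1632 higher and 986 lower at such a p (8.67%), and 7 of 30180 called. Transcripts of 1 gene share reads, so these counts are not of independent values.

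The partners of the 9 genes were described from lists of pathway genes, none of which held a called gene by edgeR (0.0199% of all genes). The lists were proposed with earlier results of these data known, so their counts are a description. Among other NMD factors 0 of 8 were called and 1 of 8 had an unadjusted p under 0.05, near the 13.7% of all genes. This was Mov10, a helicase that works with Upf1, at 9.35 ± 0.61 CPM in mutants against 7.64 ± 0.89 CPM in controls (SD, n = 4 each; log2 fold change 0.29 ± 0.10 SE, adjusted p = 0.281).

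Of 10 genes of the exon junction complex, which marks spliced RNA for the pathway, 9 lay below 0 (49.7% of all genes) with a median log2 fold change of -0.07. At an unadjusted p under 0.05, 4 were lower in mutants (6.84% of all genes) and 0 were called. Once the set was a term, 0 of the 10 had an unadjusted p under 0.05 (13.7% of all genes). Pnn, a peripheral protein of the complex, had the smallest p (-0.18 ± 0.07, adjusted p = 0.305), and its log2 fold change was -0.09 with the set as a term, where the median of the list was -0.04. Of 9 genes of cap binding and translation termination 0 were called (median -0.03), and the cap-binding factor Eif4e had the smallest p (-0.11 ± 0.04, adjusted p = 0.310). Of 14 genes of mRNA decay 0 were called (median -0.06), and the decapping activator Dcp1a had the smallest p (-0.18 ± 0.07, adjusted p = 0.323).

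Genes known to give NMD-sensitive RNA went no single way. Of 15 such genes 0 were called, 7 lay below 0 and 8 above, and the median was 0.01. The small nucleolar RNA host gene Snhg5 had the smallest p, at 31.9 ± 2.33 CPM in mutants against 38.7 ± 3.78 CPM in controls (SD, n = 4 each; log2 fold change -0.28 ± 0.08 SE, adjusted p = 0.244). All 4 of these genes with an unadjusted p under 0.05 were lower in mutants (6.84% of all genes). With the set as a term Snhg5 alone of the 15 had such a p (13.7% of all genes), at -0.16 ± 0.05 (edgeR, unadjusted p = 0.0098, adjusted p = 0.190).

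Splicing factors whose RNA carries poison exons, exons with an early stop that send it to NMD, mostly lay below 0. Of 17 such genes 16 lay below 0 (49.7% of all genes), 10 had an unadjusted p under 0.05 and a lower level in mutants (6.84% of all genes), 3 had groups that did not overlap (6.15% of all genes), and 0 were called. This list too was proposed with earlier results of these data known, so its counts are no independent test. The median log2 fold change was -0.16, and -0.11 with the library set as a term. In that fit 9 of the 17 had an unadjusted p under 0.05 (13.7% of all genes), 7 of them among those 10. Hnrnph1, a splicing regulator, had the smallest p, at 632 ± 31.6 CPM in mutants against 738 ± 43.1 CPM in controls (SD, n = 4 each; log2 fold change -0.22 ± 0.05 SE, adjusted p = 0.187). Beside these values, markers of several non-neuronal cell types had log2 fold changes above 0, and their part in them was not tested.

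Markers of cortex were present: the 8 neuronal markers summed to 4044 to 4327 TPM and the 6 radial glia and astrocyte markers to 1926 to 2146 TPM over the 8 libraries. The choroid plexus markers summed to 813 to 1323 TPM, most of it Ttr, and the red cell markers to 1853 to 7975 TPM, and none of the 9 marker lists held a gene called on genotype; with the set as a term 1 neuronal marker, Neurod6, was called and was lower in mutants. All 4 markers of microglia, of the oligodendrocyte lineage, of endothelial cells and of choroid plexus had log2 fold changes above 0 on genotype, with medians of 0.13, 0.19, 0.11 and 0.12, while 5 of the 6 radial glia and astrocyte markers lay below 0. At an unadjusted p under 0.05 (edgeR, 13.7% of all genes) stood 2 oligodendrocyte lineage markers and 1 endothelial, 1 choroid plexus and 1 radial glia and astrocyte marker, each higher in mutants. Among the neuronal markers 1 stood there and was lower in mutants. Their part in the values above was not tested.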

How the data were processed

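RNA was extracted from frozen cortex with TRIzol, per the labels' protocols, and the submitters' processing notes name Salmon 0.12.0, DESeq2 and GRCm38. Per the file headers, each deposited library file gives an estimated count and a TPM value per transcript, beside lengths. The authors' deposited table holds a mean normalized signal, a log2 fold change, a p-value and its adjusted form. Bias options, use of strand and fold shrinkage were not given in the sources used here.

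Estimated counts were summed per gene, rounded and tested with edgeR 4.0.16 in R 4.3.3 (default low-count filter, TMM, two-sided quasi-likelihood test on genotype alone, adjusted over all genes); transcripts were tested likewise. CPM values are TMM-scaled. SE and 95% intervals come from the fold and its F statistic. Shares were compared by exact permutation over 70 assignments. Alternatives used DESeq2 1.42.0, limma 3.58.1 (voom), other filters, length offsets, a replicate block, the library set (principal component of log2 CPM, prior count 2) and each library left out. The edgeR script was tested on simulated data. The 9 genes matched GENCODE M21 by versioned identifier.

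The members, taken by symbol, and the lists were proposed with earlier results of these data known. Named were all 9 genes, Phf6, the called or smallest-p gene of each list, and for each member the protein-coding gene of highest Pearson correlation. Of transcripts, those at 5% or more of a gene's TPM, annotated NMD transcripts and those of smallest p could be named. Ttr and Neurod6 were named after their values were seen.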

Additional observations from a re-analysis of the deposited data

Results flagged for a closer look

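In groups of 4 libraries, the lowest or highest library was held to stand apart where its gap to the nearest library exceeded Dixon's 95% critical share of the group's range. Of 22 groups examined (9 genes and 2 shares, each in 2 genotypes) 3 met this, all in mutants, where about 1 in 20 groups is marked by the rule itself. Smg5 stood at 105 CPM in mutant replicate 4 against 81.2 to 82.2 CPM in the other mutants; this library belongs to set 2. Upf2 stood at 40.5 CPM in mutant replicate 1, above the other mutants at 38.7 to 38.9 CPM. Smg8 stood at 19.8 CPM in mutant replicate 2, the shallowest library, below the other mutants at 22.1 to 22.6 CPM.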

How the results depend on the processing

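Over the 15 alternatives to the genotype fit 0 of the 9 NMD factors were called, and 0 of their transcripts over the 11 alternatives to the transcript fit. Upf1 stayed above 0 (0.05 to 0.11) and Upf2, Upf3a, Upf3b and Smg5 below 0 in each. The sign turned, always near 0 and without a call, for Smg8 (0.00298, adjusted p = 0.990) and Smg9 (0.00977, adjusted p = 0.954) with the library set as a term, and when 1 library was left out for Smg1 (range -0.0925 to 0.0573; above 0 when mutant replicate 3 or wild-type replicate 1 was dropped) and Smg6 (range -0.0667 to 0.00961; above 0 without wild-type replicate 1). The count of all genes called was 4, and 401 with DESeq2, 13 with no filter, 121 with the library set as a term and 20 with the replicate number as a block. With 1 library left out it ran from 3 to 699, the highest without mutant replicate 4, and was 14 without wild-type replicate 1. The count of all transcripts called was 8, 0 with the block, 1 with the set as a term, and 0 to 12 with 1 library left out (5 or fewer without mutant replicates 1, 2 or 3 or any 1 wild-type library). The labels give no sign that replicate numbers pair animals, and the correlation of same-numbered deviations was 0.24, -0.03, -0.08 and 0.32, so the block is an alternative only. It gave p = 0.250 (exact) for the NMD share, where 4 pairs cannot give a p under 0.05. The difference in the NMD share stayed below 0 in every alternative (-0.07 to -0.04 points with 1 library left out). By share of estimated reads the difference was -0.10 points (exact permutation p = 0.0571). Within genes that have such a transcript it was -0.36 points (exact permutation p = 0.0857). Without mutant replicate 4 the exact permutation p was 0.0571, the smallest that 3 against 4 can give. With any other library left out it was 0.171 to 0.229. Mutant libraries were shallower, which limits transcripts with few reads most.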

Other observations

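For each NMD factor the gene most alike over the 8 libraries was looked up among 14791 other protein-coding genes, by Pearson's r of log2 CPM. The closest genes were Zbtb34 for Upf1 (r = 0.981), Slc25a40 for Upf2 (0.959), Rtel1 for Upf3a (0.990), Wdhd1 for Upf3b (0.989), Piga for Smg1 (0.982), Zkscan17 for Smg5 (0.996), Myo18b for Smg6 (0.955), Atxn10 for Smg8 (0.968) and Rgp1 for Smg9 (0.998). Each is the highest of many values over 8 libraries that fall into 2 sets, so a high r is a description of these libraries alone. The 9 closest genes differed from one another, and none of them was called between genotypes by edgeR (adjusted p from 0.392 to 0.881).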
